A study of Mus musculus with 18 samples.

Results

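Prefrontal cortex (PFC) of germ-free (GF) mice was compared with that of colonized germ-free (CGF) mice. Libraries were chosen by their tissue and strain labels alone, which gave 3 GF and 3 CGF libraries of the PFC, 6 of the 18 libraries in the series, each from 1 mouse. They held 46654 nuclei after filtering, of 138000 in all libraries. All mice were Kun Ming mice, an outbred stock, harvested at 8 weeks of age. GF mice were kept without microbes in film isolators. CGF mice started life germ-free and were later housed in an isolator together with specific pathogen-free (SPF) mice until harvest, so both groups lacked microbes early in life. No allele or drug separated the groups. SPF mice were raised elsewhere. Their 3 PFC libraries entered the fits, where they shared the filter on low counts, the scaling and the estimate of the spread. GF mice carry the numbers 5, 6 and 7 and CGF mice 17, 18 and 19.

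The PFC is built from glutamatergic projection neurons, which load their vesicles through the transporter encoded by Slc17a7, and from GABAergic interneurons, which make GABA with the enzymes encoded by Gad1 and Gad2. Astrocytes clear glutamate, oligodendrocytes wrap axons in myelin, and microglia are the resident immune cells. Gut microbes are known to reach the brain through metabolites, immune signals and the vagus nerve.

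Nuclei were profiled by single-nucleus RNA sequencing, in which a unique molecular identifier (UMI) counts each captured transcript once. UMIs were summed over the nuclei of each library, so the mouse was the replicate. Levels are in CPM, the UMIs of a gene scaled to a common library size, by TMM factors unless plain library totals are named. Sums over marker lists are of plain library totals throughout, so a single gene of a list, given by TMM factors, can exceed its sum. Log2 fold changes are GF minus CGF, and a gene was called where the adjusted p of edgeR's quasi-likelihood test was under 0.05. In summed nuclei, fewer cells of a type and less RNA per cell cannot be told apart.

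The libraries of both groups stood apart in depth and in RNA make-up. GF libraries held 59126586 to 71463928 UMIs and CGF libraries 22213863 to 26151503, and the median nucleus held 6796 to 7426 UMIs in GF and 2353 to 3036 in CGF. Genes annotated as antisense took 15500 to 17900 CPM of plain library totals in GF PFC and 4944 to 5607 CPM in CGF PFC. Transcripts linked to ribosomal RNA took 239 to 322 CPM in GF PFC and 22570 to 31080 CPM in CGF PFC. The SPF libraries of the PFC lay near those of CGF on both measures, at 4578 to 5035 CPM and 15320 to 22250 CPM, while the other 12 libraries, among them the hippocampus of the same CGF mice, lay at 11530 to 18090 CPM and 239 to 2126 CPM. Mitochondrial UMIs were 0.359 to 0.594% in GF PFC and 1.28 to 2.24% in CGF PFC. Within the PFC, colonization and the making of the libraries cannot be told apart, and this bears on every comparison of level that follows. Any 2 of the 6 libraries shared 10 to 28 cell barcodes.

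**Figure D1:**
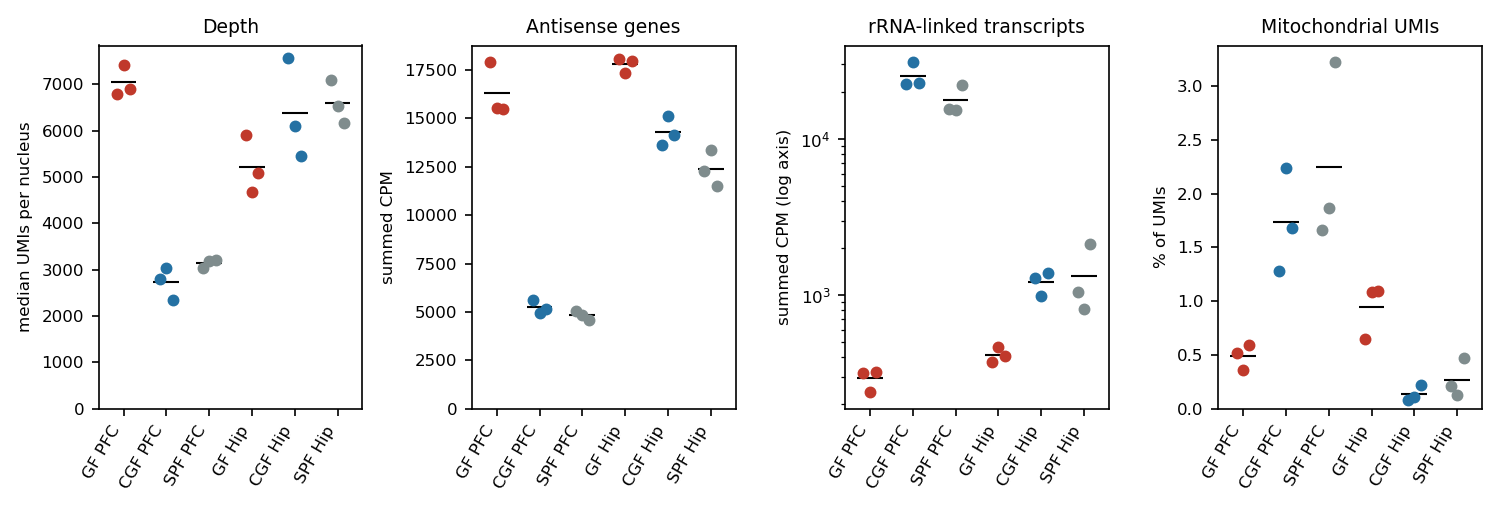
Each point is 1 library and each bar the mean of 3 mice, for the median UMIs per nucleus, the summed CPM of antisense genes, the summed CPM of transcripts linked to ribosomal RNA (log axis) and the percentage of mitochondrial UMIs. PFC libraries of CGF and SPF mice lie below the other 12 libraries on antisense genes, at 4578 to 5607 CPM, and above them on the ribosomal-RNA-linked transcripts.

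With all nuclei summed, 11406 of 18401 genes tested were called, or 62%. Of these, 5898 were higher in GF (32.1% of genes tested) and 5508 lower (29.9%), and 4991 differed at least 2-fold. By plain library totals, which put the median gene at -0.0843, the split was 5110 higher and 6231 lower. The median log2 fold change over all genes tested was 0.01.

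Sim2 had the largest fall among the genes named. It encodes a basic helix-loop-helix transcription factor and lies on chromosome 16, from 94084931 to 94127032 on the plus strand of GRCm38. Its level was 0.295, 0.218 and 0.145 CPM in GF mice 5, 6 and 7 and 110, 141 and 217 CPM in CGF mice 17, 18 and 19. The log2 fold change was -9.48 (SE 0.32, adjusted p = 1.8e-09, edgeR). The groups did not overlap, which the naming rule required and which held for 67% of all genes tested. SPF libraries of the PFC held 0.0478 to 0.118 CPM, so among the 9 PFC libraries Sim2 was high in those of CGF mice.

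Sim2 UMIs were counted in CGF nuclei of each gate. Over plain library totals the level was 118 to 221 CPM in excitatory neurons, 96.0 to 188 CPM in inhibitory neurons, 111 to 212 CPM in astrocytes, 91.5 to 179 CPM in oligodendrocytes and 68.6 to 118 CPM in microglia. Within CGF mouse 17 it was 118 CPM in excitatory neurons and 91.5 CPM in oligodendrocytes, beside 116 CPM in all its nuclei, and whether free RNA shared between droplets gave part of these UMIs was not tested. In the hippocampus it measured 6.68 to 11.6 CPM in CGF and 0.166 to 0.246 CPM in GF mice. The log2 fold change in PFC minus that in hippocampus was -3.93 (adjusted p = 2.9e-06, edgeR).

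**Figure D2:**
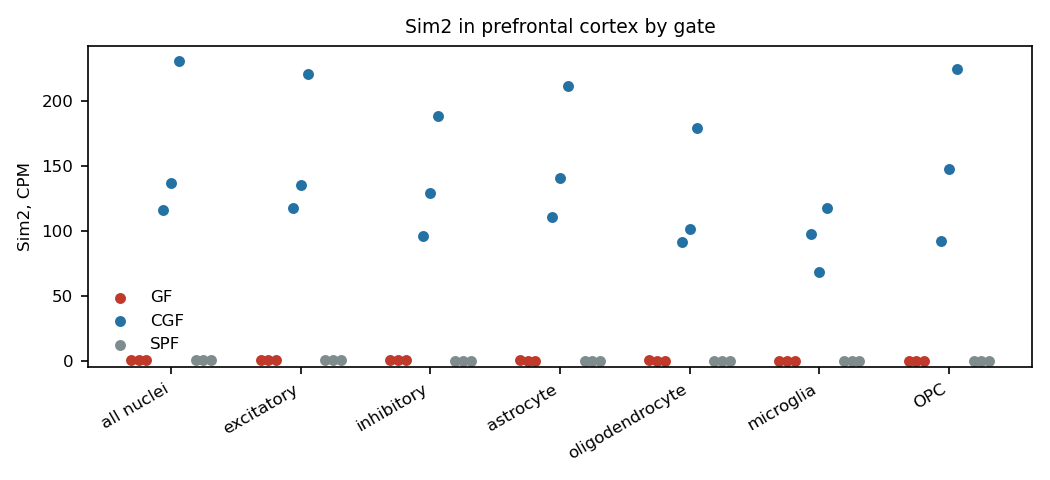
Points are PFC libraries of GF, CGF and SPF mice (3 each), and the vertical axis is the CPM of Sim2 over plain library totals in all nuclei and in each gate. Every CGF point lies at 68.6 CPM or above, and those of GF and SPF lie at or near 0.

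The other leading falls were noncoding transcripts. Gm42418, which overlaps ribosomal RNA sequence, measured 177, 124 and 194 CPM in GF and 16360, 24600 and 16300 CPM in CGF. The groups were far apart, with a log2 fold change of -6.85 (SE 0.31, adjusted p = 9.1e-09, edgeR), and SPF libraries lay near CGF at 11720 to 18220 CPM. Gm48099 fell by 8.62 and Gm19951 by 6.66 on the log2 scale. Cmss1 (-5.75) and Lars2 (-4.68), also listed with the ribosomal-RNA-linked transcripts, were lower in GF, as were all 4 genes of that list in each class, with medians from -5.11 in inhibitory neurons to -5.84 in microglia.

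The leading rises lay mostly opposite other genes. Gm26699, opposite the splicing gene Luc7l2, measured 128, 104 and 102 CPM in GF and 1.53, 0.678 and 1.67 CPM in CGF, a log2 fold change of 6.43 (SE 0.22, adjusted p = 1.8e-09, edgeR). Gm11418, opposite the acid-sensing channel gene Asic2, rose by 6.25, Gm21954, opposite the doublecortin-like kinase gene Dclk1, by 6.07, and Gm32250 by 6.03. Of 1511 antisense genes tested, 1041 were higher in GF and 149 lower, with a median of 1.82. Of 15216 protein-coding genes, 4288 were higher and 4936 lower, with a median of -0.04, and since they make up most genes tested the scaling holds that median near 0. This split by annotation was made after the values were seen. Whether counting used strand is not given in the sources used here, so reads of these genes and of the genes opposite them may not have been told apart.

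All 13 mitochondrially encoded genes were lower in GF, with a median of -1.87. mt-Co1, a core subunit of cytochrome c oxidase, measured 486, 426 and 678 CPM in GF and 2706, 4933 and 2957 CPM in CGF, a log2 fold change of -2.74 (SE 0.30, adjusted p = 9.9e-06, edgeR). mt-Co3 changed by -1.67 and mt-Atp6 by -1.24. Of 78 nuclear genes of oxidative phosphorylation 27 were higher and 25 lower, near the shares of all genes tested (32.1% higher and 29.9% lower). Atp5b, a catalytic subunit of ATP synthase, changed by -0.86 and Atp5d by -0.65. Cox8a was not called, at 227 to 275 CPM in GF and 123 to 242 CPM in CGF (adjusted p = 0.056, edgeR).

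Cytosolic ribosomal protein genes were lower for 61 of 82 and higher for 6, with a median of -0.93. Of all genes tested 29.9% were lower and 32.1% higher. Rpl14 measured 54.0, 44.7 and 57.2 CPM in GF and 117, 143 and 137 CPM in CGF, a log2 fold change of -1.34 (SE 0.11, adjusted p = 1.1e-06, edgeR). Rpl41 changed by -0.92 and Rplp1 by -0.57. Many such genes have near-identical pseudogenes, so their counts are less certain.

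Of 16 heat shock chaperones 6 were higher and 6 lower, where 32.1% of all genes tested were higher and 29.9% lower. Hsp90ab1, a chaperone of kinases and steroid receptors, measured 165, 149 and 168 CPM in GF and 385, 502 and 406 CPM in CGF, a log2 fold change of -1.43 (SE 0.11, adjusted p = 7e-07, edgeR). Hsp90b1, its counterpart in the endoplasmic reticulum, changed by -1.09 and Hspa8 by -0.46. Of 8 abundant nuclear long noncoding RNAs 4 were higher and 1 lower. Malat1 measured 70540, 69820 and 65310 CPM in GF and 36610, 31010 and 36460 CPM in CGF, a log2 fold change of 0.98 (SE 0.17, adjusted p = 0.00033, edgeR). Snhg11 rose by 0.64 and Meg3 by 0.39. Over plain totals Malat1 was 67130 to 73640 CPM in GF hippocampus, and its difference between regions was -0.07 (adjusted p = 0.84, edgeR).

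Histone deacetylases, which take acetyl groups off histones, had 3 of 11 higher and 4 lower. The shares over all genes tested, 32.1% higher and 29.9% lower, stand beside each list of this paragraph. Hdac4 measured 118, 121 and 127 CPM in GF and 193, 216 and 207 CPM in CGF, a log2 fold change of -0.76 (SE 0.08, adjusted p = 7.4e-06, edgeR). Hdac9 rose by 0.64 and Hdac8 by 0.45. Cholesterol synthesis genes had 8 of 19 higher and 2 lower, and antioxidant enzymes 6 of 18 higher and 3 lower.

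Of 6 sex-linked genes, 5 were higher in GF and 1 lower, where 32.1% of all genes tested were higher and 29.9% lower. Y-linked transcripts were present in all 6 libraries: Ddx3y (0.71) measured 47.8 to 51.6 CPM in GF and 30.3 to 30.95 CPM in CGF, Eif2s3y rose by 1.20 and Uty by 0.31, and Kdm5d changed by -0.37. Xist and its antisense Tsix lay under 1 CPM in each library.

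The excitatory gate took nuclei with at least 2 UMIs of Slc17a7 and at most 1 of Gad1 and Gad2 together, and held 3063 to 3484 nuclei per GF library and 2102 to 2371 per CGF library. Excitatory markers that the gate did not use summed to 3693 to 4311 CPM in GF and 4052 to 4308 CPM in CGF, and interneuron markers to 179 to 212 CPM and 236 to 256 CPM. Interneuron subclass markers summed to 182.6 to 187.5 CPM in GF and 214 to 251 CPM in CGF. Oligodendrocyte markers (50.5 to 64.2 CPM against 32.9 to 44.4 CPM) and microglia markers (46.3 to 53.0 CPM against 33.1 to 36.3 CPM) were higher in the GF gate without overlap, while astrocyte markers (810 to 879 CPM and 850 to 1037 CPM) and OPC markers (805 to 1009 CPM and 924 to 979 CPM) overlapped. Upper-layer neuron markers summed to 567 to 685 CPM in GF and 758 to 826 CPM in CGF, and layer 4 and mid-layer markers to 185 to 241 CPM and 124 to 137 CPM, without overlap. The latter sum was carried by Rorb, at 184 to 247 CPM in GF and 87.6 to 110 CPM in CGF, while Whrn was lower in GF and Rspo1 and Scnn1a were not called. The part of layer make-up and of these other sums in the values of this class was not tested. Here 9868 of 16299 genes were called, or 60.5%, with 5053 higher in GF (31%) and 4815 lower (29.5%). Scaled by plain library totals, which put the median gene at -0.164, the split was 3928 higher and 6019 lower. The leading falls were Sim2 (-9.30), Gm48099 (-8.82), Gm19951 (-6.89) and Gm42418 (-6.80). The leading rises were Gm26699 (6.38), Gm32250 (6.24), Gm11418 (6.24) and Gm47423 (6.24), the last opposite Ntrk2. Without CGF mouse 19 the value for Gm11418 was 6.83. With nuclei thinned to 1000 UMIs before gating, 2404 of 7404 genes were called.

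NMDA receptors combine an obligatory subunit with modulatory ones, and of 6 tested 1 was higher and 2 lower. Over all genes tested in this class 31% were higher and 29.5% lower, and each list count of this class stands beside these shares. Grin2b, a modulatory subunit prominent in early life, measured 1641, 1950 and 2218 CPM in GF and 2569, 2767 and 2970 CPM in CGF. The groups did not overlap, as was so for 65.6% of all genes tested in this class. The log2 fold change was -0.52 (SE 0.13, adjusted p = 0.0037, edgeR), and SPF libraries held 2056 to 2198 CPM, within the GF range. Grin2a lay at 1591 to 2025 CPM in GF and 1812 to 2207 CPM in CGF, and Grin1, the obligatory subunit, at 463 to 495 CPM and 469 to 484 CPM, and neither was called.

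AMPA and kainate receptor subunits had 4 of 9 higher and 2 lower. Gria3 measured 1170, 1338 and 1156 CPM in GF and 682, 742 and 564 CPM in CGF, a log2 fold change of 0.88 (SE 0.12, adjusted p = 5.1e-05, edgeR). Gria2, which limits calcium entry through AMPA receptors, rose by 0.35, and its call was kept in 10 of 15 alternatives. Gria1 was at 728 to 920 CPM in GF and 865 to 965 CPM in CGF and was not called (adjusted p = 0.31, edgeR).

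Metabotropic glutamate receptors had 4 of 7 higher and 2 lower. Grm5, which couples to calcium release, measured 1802, 1940 and 2071 CPM in GF and 1273, 1270 and 1012 CPM in CGF, a log2 fold change of 0.71 (SE 0.12, adjusted p = 0.00027, edgeR). Grm7 rose by 0.68. Grm8 rose by 0.45 with overlapping groups, and was at -0.06 with nuclei thinned before gating.

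GABA-A receptor subunits had 4 of 12 higher and none lower, with a median of 0.29, or 0.06 with nuclei thinned before gating. Gabrb1 (0.32, adjusted p = 0.062) and Gabrg3 (0.34, adjusted p = 0.053) were not called by edgeR.

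Neurexins, neuroligins and their partners, which join both sides of a synapse, had 9 of 16 higher and 3 lower, with a median of 0.39. Nlgn1 measured 4684, 4784 and 4669 CPM in GF and 2919, 3187 and 2125 CPM in CGF, a log2 fold change of 0.78 (SE 0.15, adjusted p = 0.00085, edgeR). Nrxn3 rose by 0.54. Both genes are among the longest in the genome, as are several other genes named here.

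Synaptic vesicle genes had 6 of 18 higher and 7 lower. Syt1, the calcium sensor of release, measured 3872, 3842 and 3454 CPM in GF and 2186, 2533 and 1773 CPM in CGF, a log2 fold change of 0.78 (SE 0.14, adjusted p = 0.00043, edgeR). Snap25, a membrane SNARE, rose by 0.76, and Sv2b was not called (-0.11, adjusted p = 0.38, edgeR).

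Potassium channel genes had 8 of 24 higher and 6 lower, and sodium and calcium channel genes 1 of 19 higher and 9 lower, with a median of -0.28. Kcnh7, a channel of the ERG family, measured 2693, 2574 and 2210 CPM in GF and 1042, 1209 and 752 CPM in CGF, a log2 fold change of 1.32 (SE 0.16, adjusted p = 2.2e-05, edgeR). Kcnq5, which carries the M-current, rose by 1.05. Kcnma1 was at 1673 to 1741 CPM in GF and 1723 to 2086 CPM in CGF and was not called (adjusted p = 0.17, edgeR).

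Immediate early genes, which neurons switch on when active, had 5 of 23 higher and 4 lower. Homer1, a scaffold of metabotropic receptors, measured 794, 764 and 766 CPM in GF and 235, 325 and 375 CPM in CGF, a log2 fold change of 1.31 (SE 0.15, adjusted p = 8.6e-06, edgeR). Its short, activity-induced form is not separated in these counts. Egr1 went the other way, at 73.3, 53.9 and 78.8 CPM in GF and 104, 119 and 90.3 CPM in CGF (-0.61, SE 0.14, adjusted p = 0.002, edgeR). The call of Egr1 was kept in 13 of 15 alternatives, over which it ran from -0.77 to -0.12, and that of Homer1 in all 15. Nr4a1 overlapped and was not called (0.29, adjusted p = 0.15, edgeR).

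Neurotrophins and their receptors had 3 of 6 higher and none lower. Ntrk2, the receptor of brain-derived neurotrophic factor, measured 870, 1008 and 874 CPM in GF and 662, 635 and 637 CPM in CGF, a log2 fold change of 0.51 (SE 0.11, adjusted p = 0.0016, edgeR). Gm47423, one of the leading rises, lies opposite it. Sort1 also rose by 0.51, and Ntrk3 was not called (-0.07, adjusted p = 0.65, edgeR).

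Serotonin receptors had 2 of 11 higher and 3 lower, and dopamine and noradrenaline receptors 4 of 8 higher and 2 lower. Glucocorticoid receptors and response genes had 5 of 11 higher and 2 lower, and circadian clock genes 6 of 17 higher and 4 lower. Over all genes tested in this class 31% were higher and 29.5% lower. All 13 mitochondrially encoded genes and 65 of 81 ribosomal protein genes were lower in these neurons.

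**Figure D3:**
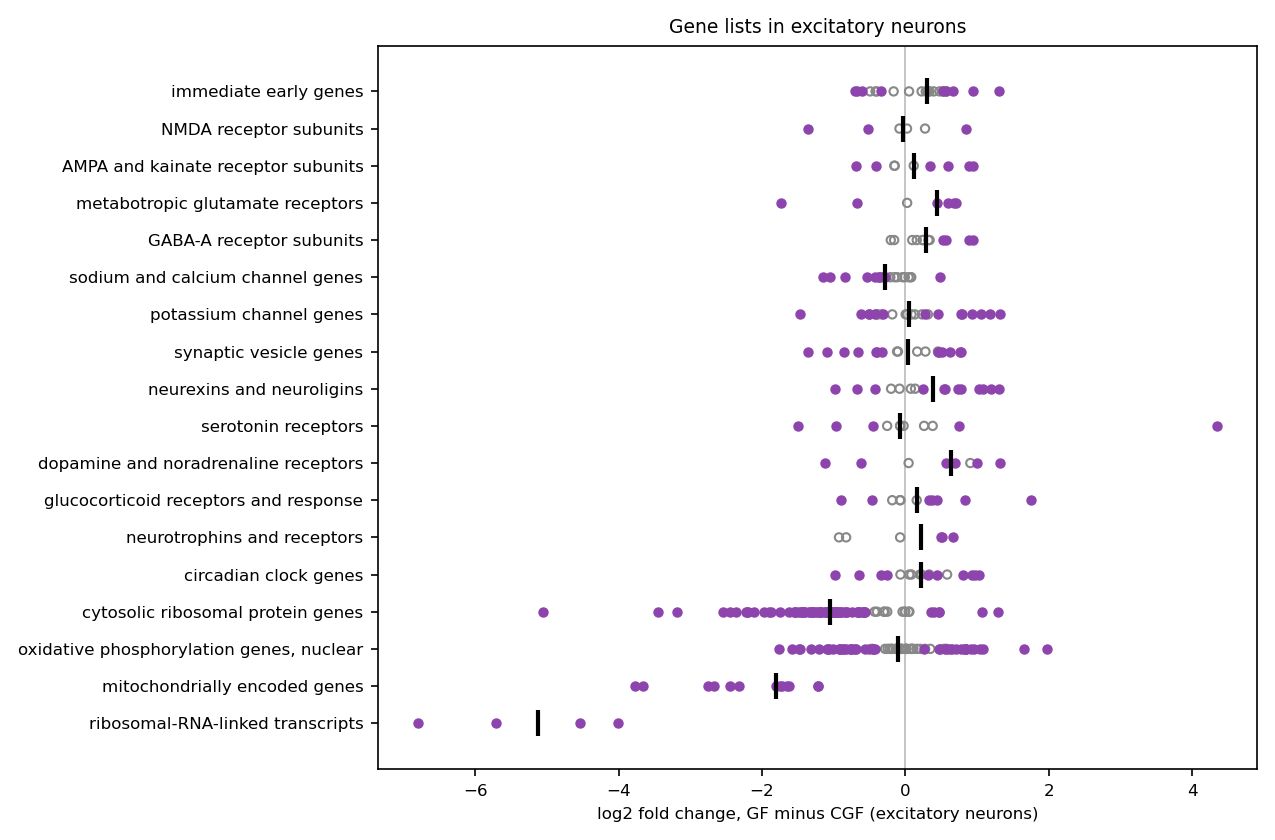
Points are the tested genes of each list in excitatory neurons, by log2 fold change (GF minus CGF); filled points were called, open points were not, and the bar is the list's median. Receptor and channel lists straddle 0, and the ribosomal protein, mitochondrial and ribosomal-RNA-linked lists have medians of -1.05, -1.81 and -5.13.

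The inhibitory gate held 788 to 1096 nuclei per GF library and 339 to 609 per CGF library. Interneuron markers that it did not use summed to 8819 to 10530 CPM in GF and 5873 to 7507 CPM in CGF, and excitatory markers to 1939 to 2167 CPM and 2289 to 2618 CPM. The interneuron sum was carried mostly by Erbb4, described with the class comparison, at 6104 to 7236 CPM in GF and 3120 to 4272 CPM in CGF, while Dlx1 was lower in GF (-1.45) and Nxph1, Kcnip1 and Dlx6os1 were not called. Of the markers of other cells, 4 sums were higher in the GF gate without overlap, at 53.0 to 108 CPM against 13.7 to 32.1 CPM for endothelial cells, 21.9 to 51.4 CPM against 11.3 to 19.4 CPM for mural cells and fibroblasts, 58.8 to 83.7 CPM against 22.6 to 49.7 CPM for microglia and 65.9 to 103 CPM against 40.5 to 61.2 CPM for oligodendrocytes. Astrocyte markers (449 to 698 CPM and 525 to 617 CPM), OPC markers (1348 to 1518 CPM and 1135 to 1423 CPM) and choroid plexus and blood markers (132 to 201 CPM and 99.3 to 152 CPM) overlapped. Upper-layer neuron markers were lower in GF, at 635 to 697 CPM against 727 to 809 CPM. The part of these sums in the values of this class was not tested. Of 11855 genes 5653 were called, or 47.7%, with 2890 higher in GF, and 816 of 3396 were called with nuclei thinned before gating. The leading rises were Gm26699 (7.02), 4921534H16Rik (6.34), opposite Clstn2, Gm11418 and Gm48003, opposite Cacna2d3. The CGF group held 3 UMIs each of the last pair, which gave ratios of 101.2 (95% exact counting interval 34.5 to 492) for Gm11418 and 84.7 (28.9 to 412) for Gm48003. The fitted log2 fold change of Gm11418 went from 5.78 without CGF mouse 17 to 7.48 without CGF mouse 18. For Gm48003 all 3 came from CGF mouse 17, without which the fitted log2 fold change was 10.26 in place of 6.27. The falls were led by Gm48099 (-8.09), Gm42418 (-6.64) and Sim2, of which the GF group held 3 UMIs and the CGF group 644, a CGF to GF ratio of 762 (95% exact counting interval 259 to 3704). Il31ra, a cytokine receptor chain, followed at 2.14, 0.754 and 2.06 CPM in GF and 166, 167 and 85.5 CPM in CGF (-6.35, SE 0.31, adjusted p = 2e-09, edgeR).

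Neuropeptide precursors, which mark kinds of interneuron, had 2 of 11 higher and 2 lower in this class. Over all genes tested in it 24.4% were higher and 23.3% lower. Npy, neuropeptide Y, measured 137, 149 and 104 CPM in GF and 275, 412 and 355 CPM in CGF, a log2 fold change of -1.42 (SE 0.16, adjusted p = 7.6e-06, edgeR). Its call was kept in 14 of 15 alternatives, over which its value ran from -1.57 to -0.48. SPF libraries held 405 to 475 CPM, above GF. Cck, cholecystokinin, measured 383, 331 and 387 CPM in GF and 188, 117 and 220 CPM in CGF, a log2 fold change of 1.07 (SE 0.19, adjusted p = 0.00037, edgeR). Sst, somatostatin, overlapped, at 197 to 285 CPM in GF and 195 to 391 CPM in CGF (adjusted p = 0.15, edgeR).

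The difference between GF and CGF was then compared between excitatory and inhibitory neurons of the same libraries. A shift by the same factor in both classes of a library cancels in this test. RNA added in equal amount to both need not cancel, and its part was not tested. Both gates cut at fixed UMI counts while nuclei of the groups differed in depth, so the nuclei they took need not match between groups. In its own gate Slc17a7 stood at 320.5 to 333.6 CPM over plain totals in GF and 564 to 730 CPM in CGF. Gad1 with Gad2 summed to 651 to 676 CPM and 861 to 1018 CPM in theirs. The part of this in the values of each neuron class and in the class difference was not tested. The test called 206 of 16557 genes, or 1.24%. Of these 71 were positive (the GF minus CGF difference was higher in excitatory neurons) and 135 negative. The count was 8 without the library as a block, 118 without SPF libraries, 46 with sums thinned to the lowest total, 105 without CGF mouse 19 and 132 without GF mouse 5. With nuclei thinned to 1000 UMIs before gating, which left 93 to 211 inhibitory nuclei per library, edgeR called 0 of 5972 genes, with 415 at an unadjusted p under 0.05. The split followed the scaling, with 122 positive and 106 negative by RLE size factors, 174 positive of 275 by DESeq2, 48 and 418 by plain library totals, and 525 and 63 with the trend on gene length and GC content removed.

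Oprm1, the mu-opioid receptor, which binds enkephalins and morphine, was among the largest positive differences. It lies on chromosome 10, from 6758506 to 7038198 on the plus strand of GRCm38, and Ipcef1 overlaps it on the other strand. In excitatory neurons it measured 145, 119 and 120 CPM in GF and 21.7, 23.2 and 17.2 CPM in CGF, a log2 fold change of 2.62. In inhibitory neurons it measured 78.7, 59.0 and 83.6 CPM in GF and 27.8, 52.7 and 36.7 CPM in CGF, a log2 fold change of 0.93. Neither class overlapped between groups, as was so for 65.6% of all genes tested in excitatory and 55.4% in inhibitory neurons. The difference between classes was 1.67 (SE 0.20, adjusted p = 0.00039, edgeR). It was 0.93 with nuclei thinned before gating (adjusted p = 0.79, edgeR). In all nuclei over plain totals SPF libraries of the PFC held 20.1 to 26.5 CPM, CGF ones 23.3 to 25.4 CPM and GF ones 101.2 to 124 CPM. In hippocampus GF mice held 66.2 to 80.4 CPM and CGF mice 54.1 to 67.5 CPM, and the difference between regions was 2.13 (adjusted p = 3.4e-07, edgeR).

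The other largest positive differences were Gm42303 (2.67), opposite the phosphatase gene Ptprd, AC121788.1 (1.58) and Rassf8 (1.32). AC121788.1, a long noncoding gene, measured 86.1, 104 and 120 CPM in GF and 28.4, 35.5 and 35.2 CPM in CGF excitatory neurons. In inhibitory neurons it overlapped, at 11.1 to 15.2 CPM and 8.96 to 13.9 CPM. Rassf8, a Ras-association domain protein, measured 30.1, 12.8 and 18.8 CPM in GF and 6.55, 3.80 and 4.07 CPM in CGF excitatory neurons. It overlapped in inhibitory neurons, at 38.6 to 56.9 CPM and 18.7 to 41.8 CPM.

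Hunk, a protein kinase, was among the largest negative differences, at -1.99 (SE 0.28, adjusted p = 0.0015, edgeR). In excitatory neurons it measured 20.2, 9.87 and 8.64 CPM in GF and 55.8, 44.4 and 30.4 CPM in CGF, and in inhibitory neurons it overlapped, at 90.7 to 128 CPM and 76.6 to 135 CPM. 1700030F04Rik (-2.003), Pla2g3 (-1.94), a secreted phospholipase gene that overlaps Inpp5j on the other strand, and Gm17171 (-1.81), opposite Etl4, were higher in GF in both classes and more so in inhibitory neurons. Pla2g3 measured 44.8, 28.2 and 30.2 CPM in GF and 3.87, 3.32 and 5.33 CPM in CGF excitatory neurons, against 171, 148 and 106 CPM and 6.03, 3.72 and 2.44 CPM in inhibitory neurons. With nuclei thinned before gating its difference was -0.20.

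Members of the gene lists that passed this test, named after their values were seen, included 3 of 23 immediate early genes, all negative. Among all genes tested 0.429% were called positive and 0.815% negative, a split that followed the scaling as given above. Junb, a subunit of AP-1 (-1.01), measured 61.9, 27.5 and 56.8 CPM in GF and 25.1, 14.9 and 14.7 CPM in CGF inhibitory neurons and overlapped in excitatory ones, at 33.3 to 76.6 CPM and 32.1 to 48.7 CPM. Ier5 (-1.19) was called in inhibitory neurons, where it measured 21.3 to 35.8 CPM in GF and 4.89 to 9.30 CPM in CGF, and overlapped in excitatory ones (adjusted p = 0.059, edgeR). Its class difference kept its call in 4 of 16 alternatives and turned to 0.08 with nuclei thinned before gating, and that of Junb kept its call in 10. Egr1 (-1.03), lower in GF excitatory neurons, overlapped in inhibitory ones, at 50.5 to 97.0 CPM and 50.9 to 60.3 CPM.

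Erbb4, a neuregulin receptor on the interneuron marker list, differed by -1.10 (SE 0.12, adjusted p = 0.0002, edgeR). It measured 7133, 7236 and 6104 CPM in GF and 3120, 4272 and 3178 CPM in CGF inhibitory neurons, and overlapped in excitatory neurons at 105 to 110 CPM and 106 to 141 CPM. With nuclei thinned before gating the difference was -0.08. In the oligodendrocyte gate too Erbb4 was higher in GF without overlap. Npy differed by 1.32, and its groups overlapped in excitatory neurons, at 17.4 to 22.5 CPM and 12.8 to 32.5 CPM. Dlx6os1 (-1.03) and Sox6 (-1.14) were lower in GF excitatory neurons and overlapped in inhibitory ones, and with nuclei thinned before gating their differences turned to 0.25 and 0.87.

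Grin2d, an NMDA receptor subunit of interneurons, differed by 1.23, at 7.97 to 10.9 CPM in GF and 4.42 to 5.75 CPM in CGF excitatory neurons. Sv2c, a vesicle protein (1.16), and Shank2, a postsynaptic scaffold (0.58), were lower in GF inhibitory neurons and overlapped in excitatory ones. With nuclei thinned before gating the difference of Sv2c turned to -0.33. Camk2a (0.54), Kcnh7 (0.45) and Gabrb1 (0.44) were positive too, and their calls were kept in 7, 9 and 6 of 16 alternatives. Vamp2, the vesicle SNARE (-0.43), was lower in GF in both classes, at 85.8 to 90.8 CPM against 193 to 251 CPM in excitatory neurons, and its class difference kept its call in 2 of 16 alternatives and turned to 0.04 with the trend on gene length and GC content removed. Prdx1 (-0.84), Cox8a (-0.67), Atp5a1 (-0.56) and Atp5d (-0.45) were negative, as were 9 of 81 ribosomal protein genes, beside 0.815% of all genes tested. Calls were kept in 2 of 16 alternatives for Atp5d, 8 for Atp5a1, 9 for Prdx1 and 13 for Cox8a.

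**Figure D4:**
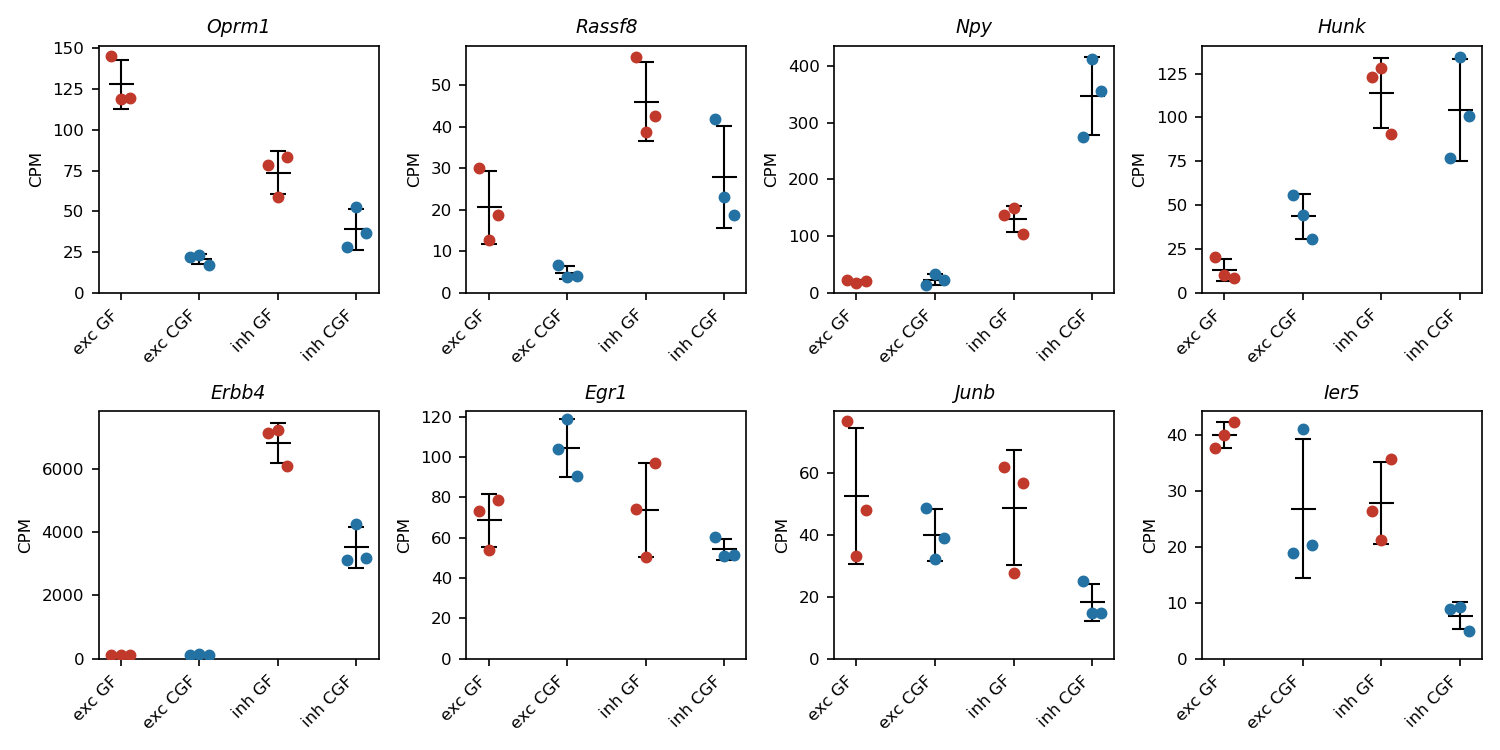
Panels give the CPM of 8 genes in excitatory (exc) and inhibitory (inh) neurons of GF and CGF mice; points are libraries, the long bar is the mean and the whiskers the SD of 3 mice. Oprm1 separates the groups more widely in excitatory neurons, and Erbb4 separates them in inhibitory neurons and overlaps in excitatory ones.

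The astrocyte gate held 556 to 712 nuclei per GF library and 332 to 406 per CGF library. Astrocyte markers summed to 8698 to 9403 CPM in GF and 4509 to 5923 CPM in CGF, and excitatory neuron markers to 2258 to 2558 CPM and 2897 to 3568 CPM, while interneuron markers went the other way, at 1057 to 1093 CPM and 885 to 1013 CPM. OPC markers (1482 to 1731 CPM against 1135 to 1337 CPM), oligodendrocyte markers (55.3 to 65.5 CPM against 32.5 to 41.1 CPM) and choroid plexus and blood markers (269 to 416.5 CPM against 254 to 260.2 CPM) were higher in the GF gate. Layer 4 and mid-layer markers were higher too, at 639 to 956 CPM in GF and 226 to 289 CPM in CGF. Rorb carried this sum, at 625.5 to 960 CPM and 225 to 260 CPM. In both groups the sum lay above that of the excitatory gate, at 184.8 to 241.3 CPM in GF and 124.1 to 136.5 CPM in CGF. In the astrocyte gate it is therefore no measure of mid-layer neurons. Layer 5 markers (163 to 240.2 CPM and 121 to 155 CPM) and interneuron subclass markers (282 to 342 CPM and 263.5 to 271 CPM) were higher in GF, and upper-layer markers were lower, at 613 to 739 CPM and 897 to 1197 CPM. None of these sums overlapped, while those of microglia (47.4 to 57.9 CPM and 31.7 to 48.4 CPM), endothelial, mural and fibroblast, layer 6 and striatal markers did. Their part in the values of this class was not tested. Of 11453 genes 5549 were called, or 48.5% (24.3% higher in GF and 24.1% lower), and 2761 of 6685 with nuclei thinned before gating. Astrocyte transport and gap-junction genes had 11 of 14 higher and 2 lower, with a median of 0.78, and without the 3 members that the gate used 9 of 11 higher and 1 lower, with a median of 0.77. Slc1a2, the main glutamate transporter of forebrain astrocytes, measured 2834, 3061 and 3217 CPM in GF and 1518, 1765 and 2055 CPM in CGF, a log2 fold change of 0.77 (SE 0.17, adjusted p = 0.0014, edgeR). Slc1a3 rose by 0.79. Over all nuclei astrocyte markers, a list with Slc1a2 and Slc1a3, overlapped, at 1219 to 1370 CPM in GF and 1363 to 1517 CPM in CGF. Slc4a4, a bicarbonate transporter that the gate used, measured -0.36.

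Cholesterol synthesis genes were higher for 13 of 19 and lower for 1 in astrocytes, and nuclear genes of oxidative phosphorylation higher for 36 of 73 and lower for 9. Sodium and calcium channel genes were lower for 15 of 19 and higher for none. Over all genes tested in this class 24.3% were higher and 24.1% lower. The leading rises were Gm15520, opposite Ntm, Gm47423 (6.17), Gm21954 (6.03) and Gm26836 (5.94), opposite Ywhae. CGF astrocytes held 2 UMIs of Gm15520, a ratio of 109 (95% exact counting interval 30.1 to 906), and 4 each of Gm47423 and Gm26836. Without CGF mouse 17 the log2 fold change was 9.85 for Gm15520 and 10.32 for Gm47423, and without CGF mouse 19 it was 7.37 for Gm26836. The leading falls were Gm48099 (-8.02), Gm42418 (-6.42), Sim2 and Gm43731. GF astrocytes held 2 UMIs of Sim2, both in mouse 5, a CGF to GF ratio of 630 (173 to 5214), and without that mouse the fitted log2 fold change was -10.86 in place of -8.95. Gm43731 had 63, 91 and 2 UMIs in CGF mice 17, 18 and 19 and 1, 2 and 0 in GF mice 5, 6 and 7, so CGF mouse 19 lay near the GF mice, and its ratio was 135 (45.3 to 660). Its fitted log2 fold change of -6.75 ranged from -7.56 (without GF mouse 6) to -6.05 (without CGF mouse 18).

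The oligodendrocyte gate held 382 to 576 nuclei per GF library and 237 to 368 per CGF library, and its markers summed to 2709 to 3384 CPM and 2678 to 3639 CPM, with overlap. Excitatory markers, at 2777 to 3123 CPM in GF and 2075 to 2560 CPM in CGF, interneuron markers, at 1415 to 1623 CPM and 827 to 1153 CPM, and layer 4 and mid-layer markers, at 119 to 247 CPM and 70.6 to 94.5 CPM, did not overlap. Layer 6 markers separated the other way, at 598 to 685 CPM in GF and 693 to 987 CPM in CGF, and upper-layer, layer 5, interneuron subclass and striatal markers overlapped. Erbb4 of the interneuron list alone measured 1364 to 1502 CPM in GF and 585 to 741 CPM in CGF by TMM factors. In both groups that lay above its level in excitatory neurons. The part of these sums in the values of this class was not tested. Of 8921 genes 3500 were called, or 39.2% (19.9% higher in GF and 19.4% lower), and 2025 with sums thinned to the lowest total. Myelin genes were higher for 5 of 15 and lower for 2 in this class, with a median of 0.05 (3 of 10 and 2 without the 5 members that the gate used). Over all nuclei myelin genes were higher for 12 of 15 with none lower, with a median of 0.64, where 32.1% of all genes tested were higher. Mbp, myelin basic protein, lay at 1571 to 1799 CPM in GF and 1992 to 2346 CPM in CGF and was not called, nor was Mobp, at 584 to 686 CPM and 548 to 676 CPM. The gate used both genes.

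CGF oligodendrocytes held 0 UMIs of 4930587E11Rik, opposite Cntn3, Gm16552, opposite Atxn2, and 4930545L23Rik, opposite Plcb1. Against a floor of 3 counts over the group these were at least 25.3-fold, 24.0-fold and 19.02-fold higher in GF. GF oligodendrocytes held 0 UMIs of Gm26870, which was at least 208-fold lower there and ranged from 13.01 to 211 CPM in CGF. CGF oligodendrocytes held 1 UMI of Gm26699 and GF ones 655, a ratio of 153 (95% exact counting interval 27.5 to 6074), and without CGF mouse 17, which held that UMI, the fitted log2 fold change was 9.89 in place of 7.04, and without CGF mouse 18 it was 6.41. GF oligodendrocytes held 3 UMIs of Gm48099, a CGF to GF ratio of 543 (184 to 2646), and 1 of Sim2, in mouse 5, a ratio of 729 (129 to 28980). Without that mouse the fitted log2 fold change of Sim2 was -9.73 in place of -8.71. Gm42418 fell as well (-6.999).

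The microglia gate held 285 to 358 nuclei per GF library and 77 to 137 per CGF library, and microglia markers summed to 4124 to 4803 CPM and 2516 to 3908 CPM. Interneuron subclass markers were at 457 to 519 CPM in GF and 247 to 321 CPM in CGF, choroid plexus and blood markers at 342 to 426 CPM and 132 to 256 CPM and layer 5 markers at 185.5 to 305 CPM and 137 to 183 CPM, without overlap. The other sums of non-microglial markers that no gate used overlapped. Among genes of other gates, Gad1 with Gad2 summed to 66.88 to 72.75 CPM in GF and 13.71 to 58.98 CPM in CGF. OPC gate genes summed to 16.97 to 18.44 CPM in GF and 27.43 to 40.07 CPM in CGF. Neither sum overlapped, while those of the excitatory, astrocyte and oligodendrocyte gate genes did. The part of all of these sums in the values of this class was not tested. Of 4011 genes 1208 were called, or 30.1%, with 575 higher in GF (14.3%) and 633 lower (15.8%). With the trend on gene length and GC content removed the split was 362 and 704. The count was 777 without CGF mouse 17 and 322 with sums thinned to the lowest total. With GF and CGF libraries alone 1634 of 7841 genes were called. Homeostatic microglial genes were higher for 3 of 12 and lower for 2 in this class, with a median of 0.11 (3 of 8 and none without the 4 members that the gate used). Leaving out 1 mouse gave medians from -0.07 to 0.23. Over all nuclei homeostatic genes were higher for 9 of 14 with none lower, with a median of 0.84, where 32.1% of all genes tested were higher. Csf1r, the survival receptor of microglia, measured -0.63 (adjusted p = 0.023, edgeR). The gate used this gene, its call was kept in 6 of 15 alternatives, and with nuclei thinned before gating it measured 0.44. Tgfbr1, the receptor of the maintenance signal TGF-beta, was at 1206 to 1554 CPM in GF and 646 to 1191 CPM in CGF and was not called (adjusted p = 0.11, edgeR).

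Complement genes had 1 of 7 higher and 1 lower in microglia, or 1 of 4 and 1 without the 3 members that the gate used. Interferon response genes had 1 of 2 higher and none lower, and nuclear genes of oxidative phosphorylation 17 of 41 higher and none lower. In this class 14.3% of all genes tested were higher and 15.8% lower. Il31ra measured 3.03, 7.18 and 1.26 CPM in GF and 259, 325 and 236 CPM in CGF (-6.08, SE 0.43, adjusted p = 1.2e-11, edgeR). Gm48099 (-7.54), Gm42418 (-7.05) and Cmss1 (-6.18) fell as well. GF mice 5, 6 and 7 held 2, 2 and 0 UMIs of Gm48099, and without GF mouse 7 its log2 fold change was -6.86. CGF microglia held 0 UMIs of Gm20642, Sorbs2os, Gm2245 and Gm32250, which against a floor of 3 counts over the group were at least 20.3-fold, 19.7-fold, 15.4-fold and 13.1-fold higher in GF.

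Shares of nuclei in each gate rest on marker UMIs and so on depth. Thinning left out nuclei under 1000 UMIs and also lowered the glial gates from 3 to 2 UMIs, so thinned glial shares do not differ from the others by depth alone. At full depth the excitatory gate held 40.8% ± 3.63 (SD, n = 3) of GF and 30.5% ± 1.97 (SD, n = 3) of CGF nuclei, and with nuclei thinned to 1000 UMIs 2.68% ± 0.102 and 6.78% ± 1.52, so the order turned. The gate gene Slc17a7 was itself lower in GF over all nuclei, at 228 to 265 CPM against 314 to 397 CPM. The inhibitory gate held 10.8% ± 1.11 and 6.18% ± 2.00 at full depth and 2.03% ± 0.158 and 2.34% ± 1.01 after thinning. Astrocytes held 7.62% ± 0.304 and 4.92% ± 0.606, and 5.48% ± 0.257 and 5.15% ± 0.940 after thinning.

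The share of microglia was 3.99% ± 0.277 in GF and 1.33% ± 0.480 in CGF at full depth, with no overlap and p = 0.1 (exact two-sided permutation test, 3 against 3 mice, the smallest p this design allows). Oligodendrocytes held 5.997% ± 0.874 and 3.97% ± 0.969 at full depth, with overlap. The median microglial nucleus held 1572 to 1776 UMIs in GF and 731 to 883 in CGF, and the median oligodendrocyte 2290 to 2520 and 907 to 1021, so the cut at 1000 UMIs fell mostly on CGF glia. Thinning took gated microglia from 137, 77 and 79 to 47, 24 and 27 nuclei in CGF and from 337, 285 and 358 to 327, 271 and 370 in GF, and CGF oligodendrocytes from 237, 368 and 270 to 150, 141 and 146. The thinned shares, 4.03% ± 0.337 and 0.532% ± 0.210 for microglia and 6.001% ± 0.713 and 2.37% ± 0.0950 for oligodendrocytes, therefore give no check of the full-depth order. Oligodendrocyte precursors (OPC) held 1.90% ± 0.126 and 1.58% ± 0.334. Over the 6 gates at full depth the lowest adjusted p was 0.15 by the exact permutation test. Thinning left out 186 to 204 nuclei per GF library and 1165 to 1268 per CGF library as too shallow.

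**Figure D5:**
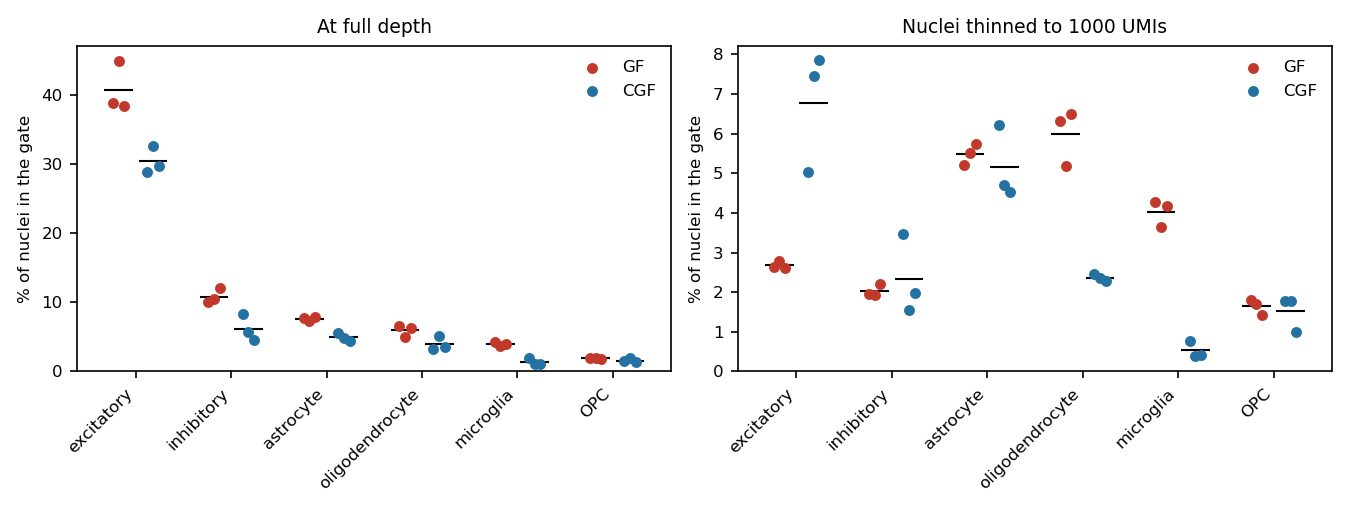
Points are libraries and bars the means of 3 mice; the vertical axis is the percentage of nuclei in each gate at full depth (left) and with nuclei thinned to 1000 UMIs (right), where shallower nuclei were left out and glial gates took 2 in place of 3 UMIs. The excitatory share is higher in GF on the left and lower on the right, and the microglial share on the right, at 3.64 to 4.26% in GF and 0.401 to 0.774% in CGF, rests on a cut that fell mostly on CGF microglia.

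The hippocampus of the same mice allowed a test of whether the difference between GF and CGF was of another size in PFC, with the mouse as a block. The PFC libraries of GF mice 6 and 7 may be exchanged in the labels, since their nuclei numbers stand the other way round in the study, and the values within these mice are uncertain to that extent. The test called 11113 of 20773 genes, or 53.5%. The GF minus CGF difference was higher in PFC than in hippocampus for 5737 of them and lower for 5376. By plain library totals the split was 4084 and 6941. With the PFC libraries of GF mice 6 and 7 exchanged, 10757 genes were called, 10692 of them shared with the 11113, and without the block 10699. The largest positive differences were Gm15577 (6.29), opposite Negr1, Gm21954 (5.78), Gm29237 (5.597), opposite Sptbn1, and Nrg3os (5.53), opposite Nrg3. On the log2 scale Gm15577 differed between PFC and hippocampus by 0.10, 0.28 and -0.30 in GF mice as the labels pair them and by -6.54, -6.74 and -5.49 in CGF mice. The largest negative ones were Gm48099 (-7.27), Gm42418 (-5.01), Gm19951 (-4.88) and mt-Nd1 (-4.78), a subunit of complex I. Of 1946 antisense genes 1104 had the higher difference in PFC and 142 the lower.

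By group, all 13 mitochondrially encoded genes and 80 of 82 ribosomal protein genes had the lower difference in PFC, with medians of -4.41 and -1.88. Over all genes tested 27.6% had the higher difference in PFC and 25.9% the lower. The difference was lower for 55 of 80 nuclear genes of oxidative phosphorylation and higher for 6. It was lower for 15 of 23 immediate early genes and higher for 3, and lower for 7 of 13 neuropeptide precursors and higher for none. It was higher for 10 of 15 GABA-A receptor subunits and lower for 2, and higher for 10 of 15 myelin genes and lower for none.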

How the data were processed

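Single-nucleus libraries (10x Genomics, 3' ends) of the PFC of 3 GF and 3 CGF mice were compared. The 3 SPF libraries shared the filter on low counts, the scaling and the estimate of the spread. The test between regions added 9 hippocampal libraries. The authors deposited UMI counts per gene and barcode, made with Cell Ranger 3.1.0 against mm10 per the file headers and the study's methods, with replicates kept apart. Other text of the series names an earlier kit and software version, and whether intronic reads and strand were counted is not given in the sources used here. No doublets were removed here, and 2.45 to 4.14% of GF and 0.899 to 1.24% of CGF nuclei met both neuronal gates. Of 30905 genes, 30843 matched the annotation.

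Nuclei with at least 200 genes and at most 10% mitochondrial UMIs were kept. The inhibitory gate mirrored the excitatory one. Glial gates required at most 1 UMI of Slc17a7 and of Gad1 with Gad2, at least 3 UMIs over their own marker genes and at least 2 times the UMIs of each other glial gate. On thinned nuclei the glial minimum was 2 UMIs. Gate genes carry no finding in their class. Counts were summed per library and fitted with edgeR 4.0.16 in R 4.3.3 (filterByExpr, TMM, quasi-likelihood test, Benjamini-Hochberg threshold 0.05). The class test carried the library and the region test the mouse as a block. GF and CGF mice are different animals and were not paired. Shares of nuclei were tested with scipy 1.17.1. Code was tested on simulated data.

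Named genes were the 4 largest rises and falls per comparison with a mean of at least 20 CPM and no overlap, the 3 most abundant members of each main list, and sex-linked genes. Some genes that this rule names are not reported here. Further names, list counts without gate genes and counting intervals were added after the values were seen. Members and lists were chosen with earlier results of these data known. Alternatives were DESeq2 1.42.0, RLE factors, plain totals, no filter, GF and CGF libraries alone, thinning, removal of a trend on gene length and GC content (mgcv 1.9.3), stricter nuclei, no block and leaving out each mouse. Each library is 1 mouse. The p-values of edgeR weigh a difference against the spread between libraries, with information shared across genes and with SPF libraries. In the class and region tests that spread is the one left within the blocks. No p-value here covers what all 3 libraries of a group have in common. Intervals and floors cover counting error only.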

Additional observations from a re-analysis of the deposited data

Results flagged for a closer look

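The results here were picked out because the difference between GF and CGF, tested directly, was not of the same size in excitatory and inhibitory neurons or in PFC and hippocampus.

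Between the neuron classes 206 genes passed. Positive values, where the GF minus CGF difference was higher in excitatory neurons, were 2.67 for Gm42303, 1.67 for Oprm1, 1.58 for AC121788.1, 1.32 for Rassf8, 1.32 for Npy, 1.23 for Grin2d, 1.16 for Sv2c, 0.58 for Shank2, 0.54 for Camk2a, 0.45 for Kcnh7 and 0.44 for Gabrb1. Negative values were -2.003 for 1700030F04Rik, -1.99 for Hunk, -1.94 for Pla2g3, -1.81 for Gm17171, -1.19 for Ier5, -1.14 for Sox6, -1.10 for Erbb4, -1.03 for Egr1, -1.03 for Dlx6os1, -1.01 for Junb, -0.84 for Prdx1, -0.67 for Cox8a, -0.56 for Atp5a1, -0.45 for Atp5d and -0.43 for Vamp2. Of 16 alternatives the call was kept in 2 for Atp5d and Vamp2, 4 for Ier5, 6 for Gabrb1, 7 for Camk2a, 8 for Atp5a1 and 9 for Kcnh7, Prdx1 and Sox6.

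Between PFC and hippocampus 11113 genes passed. Positive values were 6.29 for Gm15577, 5.78 for Gm21954, 5.597 for Gm29237, 5.53 for Nrg3os and 2.13 for Oprm1. Negative values were -7.27 for Gm48099, -5.01 for Gm42418, -4.88 for Gm19951, -4.78 for mt-Nd1 and -3.93 for Sim2. PFC libraries of CGF mice held less antisense and more ribosomal-RNA-linked RNA than the hippocampal libraries of the same mice, and the part of that in these values was not tested.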

How the results depend on the processing

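Over the alternatives run for 8 gene counts, 105 recomputed values stayed within 1.5 times of the reported ones, 14 were lower, in 6 of the counts, and 3 were higher. With nuclei thinned to 1000 UMIs before gating, the calls were 2404 in excitatory neurons, 816 in inhibitory neurons, 2761 in astrocytes, 1694 in oligodendrocytes and 543 in microglia, with fewer nuclei and genes tested. With sums thinned to the lowest total they were 2025 in oligodendrocytes and 322 in microglia. Leaving out 1 mouse gave 777 to 1180 calls in microglia. Thinning all nuclei, an alternative chosen after seeing the data, gave 9262 calls, 8125 of them shared with the reported ones. Of 131 calls of named genes over these comparisons, 86 held in each alternative run for them and 45 were lost in at least 1, of which 7 also changed sign in 1 or more. For 29 list medians, 384 recomputed values stayed within the SD between mice of the reported ones. The other 47, in 23 of the medians, did not.

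The class test moved most. Its 206 calls became 466 with plain totals, 783 without the filter, 588 with the trend on length and GC content removed, 118 with GF and CGF libraries alone, 46 with thinned sums and 0 with thinned nuclei, where 415 of 5972 genes had an unadjusted p under 0.05 by edgeR. Leaving out 1 mouse gave 105 to 226 calls. Without the replicate block it called 8 genes, and the region test 10699. With the PFC libraries of GF mice 6 and 7 exchanged, an alternative chosen after seeing the data, the region test called 10757 genes. The cause was not tested.

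Under thinning before gating the share differences, GF minus CGF, became -4.10 points for excitatory neurons, -0.309 for inhibitory neurons, 0.337 for astrocytes, 3.63 for oligodendrocytes and 3.49 for microglia, with the glial minimum also lowered and shallow nuclei left out. Signs turned there for Grin1 (-0.32), Grm8 (-0.0563), Sst (0.0758), Mbp (0.14) and Csf1r (0.44), and in the class test for Ier5 (0.0845), Dlx6os1 (0.25), Sv2c (-0.33) and Sox6 (0.87). They also turned with plain totals for Grin1 (-0.15) and Mobp (-0.0474), and for Vamp2 in the class test (0.0415) with the trend removed. Leaving out 1 mouse gave -0.0361 (without CGF mouse 18) to 0.12 for Mobp, up to 0.029 (without GF mouse 5) for Grin2a and -0.213 to 0.0407 (without GF mouse 5) for Ntrk3. Microglia and thinned gates hold few nuclei, which limits what their depth can show.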

Other observations

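Markers of cell types outside the gates, summed over all nuclei, overlapped between the groups. Endothelial markers summed to 96.7 to 162 CPM in GF and 86.0 to 156 CPM in CGF, mural and fibroblast markers to 51.0 to 66.2 CPM and 37.7 to 65.8 CPM, and choroid plexus and blood markers to 247 to 295 CPM and 228 to 308 CPM. Striatal neuron markers, which would show tissue from below the cortex, summed to 1025 to 1688 CPM in GF and 1068 to 1213 CPM in CGF. In excitatory neurons layer 6 markers overlapped, at 867 to 1149 CPM in GF and 961 to 1344 CPM in CGF, as did layer 5 markers, at 203 to 222 CPM and 184 to 223 CPM.

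Of the genes that passed the class test, 195 were tested in both neuron classes. Of these, 37 were lower in GF in both and 33 higher in both, so that the classes differed in size and not in direction. Another 41 were lower and 24 higher in excitatory neurons with no call in inhibitory neurons, and 20 were lower and 32 higher in inhibitory neurons with no call in excitatory neurons. Only 4 were called in opposite directions, each lower in excitatory and higher in inhibitory neurons of GF mice.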
